A study of Mus musculus with 4 samples.

Results

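The genes described here are the regulators of plasma cell fate: Irf4, Prdm1, Xbp1, Sdc1, Ell2, Pou2af1, Zbtb20 and Ikzf3. They were taken by name, as 8 of the 32285 genes in both mRNA matrices, and all 8 were found in both. B cells that carry the MD4 transgene, which gives a B cell receptor for hen egg lysozyme (HEL), were transferred as a mixture into 6 CD45.1+ wild-type recipients of 8 to 12 weeks, and HEL+ CD95+ splenic cells were sorted on day 8 after immunization with SRBC-HEL, sheep red blood cells conjugated to HEL. The CD45.2+ cells of every recipient carried BCL2.Tg, a transgene for the survival protein BCL2 that is restricted to B cells, and were labelled Dock8 wt/wt in 3 recipients and Dock8 cpm/cpm in the other 3. The cpm allele is a chemically induced mutation that abolishes the DOCK8 protein. The CD45.1+ cells were Dock8 wt/wt MD4 partners without BCL2.Tg in all 6 recipients, and the recipients' own cells were CD45.1+ too. Each sort was 1 library holding cells of 6 mice told apart by hashtag antibodies, so that BCL2.Tg, the CD45 allele and the library cannot be told apart in any comparison of the sorts. In the text, wt mice and cpm mice are recipients of CD45.2+ cells labelled Dock8 wt/wt or Dock8 cpm/cpm, respectively, and levels are CPM, the share of a gene in the summed unique molecular identifiers (UMIs) of 1 mouse, scaled to a total of 1000000.

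A germinal center B cell becomes an antibody-secreting cell when the program that keeps it a B cell is replaced by one built around IRF4 and Blimp-1. IRF4 is a transcription factor whose level rises with B cell receptor and CD40 signals and, when high, induces Prdm1. Prdm1 encodes Blimp-1, a repressor that silences B cell identity genes and permits the expression of Xbp1, whose spliced product drives the expansion of the endoplasmic reticulum. Sdc1 encodes syndecan-1 (CD138), the surface proteoglycan by which plasma cells are sorted. ELL2 is a transcription elongation factor that favours the secretory form of the immunoglobulin heavy chain mRNA. Pou2af1 encodes OCA-B, a coactivator that binds octamer factors on immunoglobulin promoters and is needed for germinal centers. ZBTB20 is a zinc finger protein needed for long-lived plasma cells, and Ikzf3 encodes Aiolos, an Ikaros family zinc finger protein. The counts are from the 3′ ends of transcripts and do not separate spliced from unspliced Xbp1.

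One annotated start per gene is shown for the 5 genes whose levels followed the plasma cell state below and for Pou2af1, whose level did not. Counts from 3′ ends do not show which start was used. Irf4, Prdm1, Sdc1 and Ell2 have annotated sequence upstream of the start shown, and the windows of Prdm1 and Ell2 lie wholly inside the annotated genes. Each line gives the 250 bases before the start in RefSeq, on the gene's strand and from GRCm38.p6, with matches to 6 searched motifs in capitals.
Irf4 (chr13:30748983-30749232, plus strand): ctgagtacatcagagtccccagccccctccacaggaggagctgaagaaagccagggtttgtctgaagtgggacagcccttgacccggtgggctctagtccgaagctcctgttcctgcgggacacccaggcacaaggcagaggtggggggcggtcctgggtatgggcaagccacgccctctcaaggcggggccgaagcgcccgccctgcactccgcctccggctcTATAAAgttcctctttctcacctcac
Prdm1 (chr10:44458749-44458998, minus strand): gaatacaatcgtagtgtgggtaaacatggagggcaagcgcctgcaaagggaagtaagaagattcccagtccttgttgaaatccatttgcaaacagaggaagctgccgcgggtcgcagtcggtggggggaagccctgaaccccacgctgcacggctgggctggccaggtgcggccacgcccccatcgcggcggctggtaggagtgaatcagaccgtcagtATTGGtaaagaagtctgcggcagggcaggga
Xbp1 (chr11:5520391-5520640, plus strand): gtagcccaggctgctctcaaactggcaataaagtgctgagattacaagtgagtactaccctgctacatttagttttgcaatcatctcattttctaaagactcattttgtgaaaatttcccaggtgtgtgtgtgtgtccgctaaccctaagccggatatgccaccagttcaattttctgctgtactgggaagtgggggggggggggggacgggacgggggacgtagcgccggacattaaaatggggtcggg
Sdc1 (chr12:8771146-8771395, plus strand): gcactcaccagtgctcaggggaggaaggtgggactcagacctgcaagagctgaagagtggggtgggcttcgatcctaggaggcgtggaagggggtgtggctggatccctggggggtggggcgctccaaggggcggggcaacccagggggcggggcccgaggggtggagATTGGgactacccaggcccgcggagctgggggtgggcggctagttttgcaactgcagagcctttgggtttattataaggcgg
Ell2 (chr13:75707234-75707483, plus strand): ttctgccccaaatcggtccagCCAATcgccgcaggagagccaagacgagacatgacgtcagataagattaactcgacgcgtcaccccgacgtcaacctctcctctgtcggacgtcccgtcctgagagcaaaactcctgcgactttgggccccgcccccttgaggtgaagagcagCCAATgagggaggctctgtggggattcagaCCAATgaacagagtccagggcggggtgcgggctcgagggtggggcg
Pou2af1 (chr9:51213440-51213689, plus strand): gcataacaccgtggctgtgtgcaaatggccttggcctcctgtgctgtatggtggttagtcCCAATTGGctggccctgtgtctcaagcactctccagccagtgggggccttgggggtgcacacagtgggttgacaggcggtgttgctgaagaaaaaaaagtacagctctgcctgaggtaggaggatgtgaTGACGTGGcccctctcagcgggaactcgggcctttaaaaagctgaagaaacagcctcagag

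The motifs were searched on both strands over the whole RefSeq window, which runs on for 50 bases past the start, and overlapping matches were allowed. Windows were found for 7 of the 8 genes, all but Ikzf3. The UPR element TGACGTGG, the site named for the unfolded protein response that XBP1 takes part in, stood at position -61 of Pou2af1 and was present in 0.676% of 32851 mouse promoters. The TATA box TATAAA stood at -26 of Irf4 and was present in 13.6% of promoters. The CCAAT box CCAAT was present in 5 of the 7 windows (Ell2, Pou2af1, Prdm1, Sdc1 and Zbtb20) and in 37.4% of promoters, so that its letters were common everywhere. The octamer ATGCAAAT, the ETS and IRF composite element (GGAA and GAAA spaced by 2 bases) and the interferon response element (GAAA and GAAA spaced by 2 bases) were in 0 of the 7 windows, against 1.74%, 2.72% and 3.44% of promoters. Per the annotation of the same build (GENCODE M21), Irf4 lies on chromosome 13 at 30749226-30766976, Prdm1 on chromosome 10 at 44437177-44528501, Xbp1 on chromosome 11 at 5520659-5525893 and Sdc1 on chromosome 12 at 8771323-8793715. Ell2 lies on chromosome 13 at 75706757-75772364, Pou2af1 on chromosome 9 at 51213708-51240080, Zbtb20 on chromosome 16 at 42875881-43642602 and Ikzf3 on chromosome 11 at 98464902-98546031.

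After demultiplexing and filtering, 9692 cells were kept. The CD45.2 library gave 1672 to 2607 cells for each wt mouse but only 44 to 101 for each cpm mouse, and the CD45.1 library gave 339 to 947 cells per mouse. These numbers depended on the hashtag rule. A 3-fold hashtag margin gave 228, 159 and 473 CD45.2 B cells in cpm mice, against 57, 43 and 95 here. In wt mice it gave 2376, 3446 and 2071, against 1996, 2576 and 1658. Summed UMIs were 14589433 to 18036775 in the CD45.2 cells of wt mice, 342465 to 700331 in those of cpm mice and 2365275 to 7020373 in CD45.1 cells, and 38 barcodes occurred in both libraries, 6 of them among the kept cells. Dock8 itself was at 83.5 to 105 CPM in all 6 mice of the CD45.2 sort (log2 fold change, cpm over wt, -0.16, edgeR quasi-likelihood adjusted p = 0.750), which does not check a point mutation. Sex-linked genes stood against the study's note on the donors, which gives male Dock8 wt/wt and female Dock8 cpm/cpm cells. Xist was at 1203 to 1429 CPM in CD45.2 cells of wt mice and 281 to 406 CPM in those of cpm mice, and Ddx3y, on the Y chromosome, at 1.97 to 2.33 against 60.0 to 67.5 CPM. A UMI of a Y-linked gene was present in 3.66% of non-plasma B cells of the CD45.2 sort in wt mice and in 58.2% in cpm mice, where 59.3% had an Xist UMI. Of these 182 cells of cpm mice, 66 had both, so that cells or free RNA of wt mice may be among what was assigned to cpm mice, in an amount that was not determined and in every value of CD45.2 cells of cpm mice below. The groups are therefore named by their labels throughout, each direction between them is that of the labels, and genotype and donor sex cannot be told apart.

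Clustering of both libraries, with the 8 genes left out of the genes that defined the clusters, gave 15 clusters of B cells and 1 of T cells, named from the study's own marker lists. Of these, 10 were germinal center, early, activated or memory-like: EarlyGC1, EarlyGC2, Activated2, Activated/Memory, LZ1 and LZ2 (light zone), LZtoPrePC/Memory, and DZ1, DZ2 and DZ4 (dark zone). The other 5 were plasma cell-like, namely CyclingPC/PB (cycling plasma cells and plasmablasts), PC1 and 3 clusters with the PC2 markers, told apart here by a leading gene as PC2 (Iglv1), PC2 (Slpi) and PC2 (Apoe). These names mean resemblance only. LZtoPrePC/Memory held 214 cells of low RNA content, with a median of 1755.5 UMIs. Their median share of mitochondrial counts was 5.92%, against 2.67% in EarlyGC2, the next highest cluster. States were not tested against each other, because the clusters were built from the same cells' counts.

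Irf4, Prdm1, Xbp1, Sdc1 and Ell2 were highest in the 5 plasma cell-like states, and Pou2af1, Zbtb20 and Ikzf3 were not. In CD45.2 cells of the 3 wt mice, the log2 ratio of plasma to non-plasma levels was 5.21 ± 0.31 for Sdc1, 4.76 ± 0.09 for Prdm1, 3.95 ± 0.21 for Xbp1, 3.00 ± 0.24 for Ell2 and 2.51 ± 0.12 for Irf4 (mean ± SD, n = 3 mice). It was 0.07 ± 0.04 for Pou2af1, -1.28 ± 0.16 for Ikzf3 and -1.35 ± 0.40 for Zbtb20. Immunoglobulin transcripts fill much of a plasma cell's UMIs, and with immunoglobulin genes left out of the total every ratio was higher, at 0.68 ± 0.03 for Pou2af1, -0.68 ± 0.14 for Ikzf3 and -0.75 ± 0.39 for Zbtb20. CD45.1 cells from these mice had the same order of signs, with 6.72 ± 0.13 for Sdc1, 6.34 ± 1.07 for Prdm1, 4.42 ± 0.15 for Xbp1, 3.19 ± 0.19 for Irf4, 2.82 ± 0.21 for Ell2, 0.44 ± 0.11 for Pou2af1, -1.85 ± 0.20 for Ikzf3 and -2.91 ± 0.73 for Zbtb20.

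**Figure D1:**
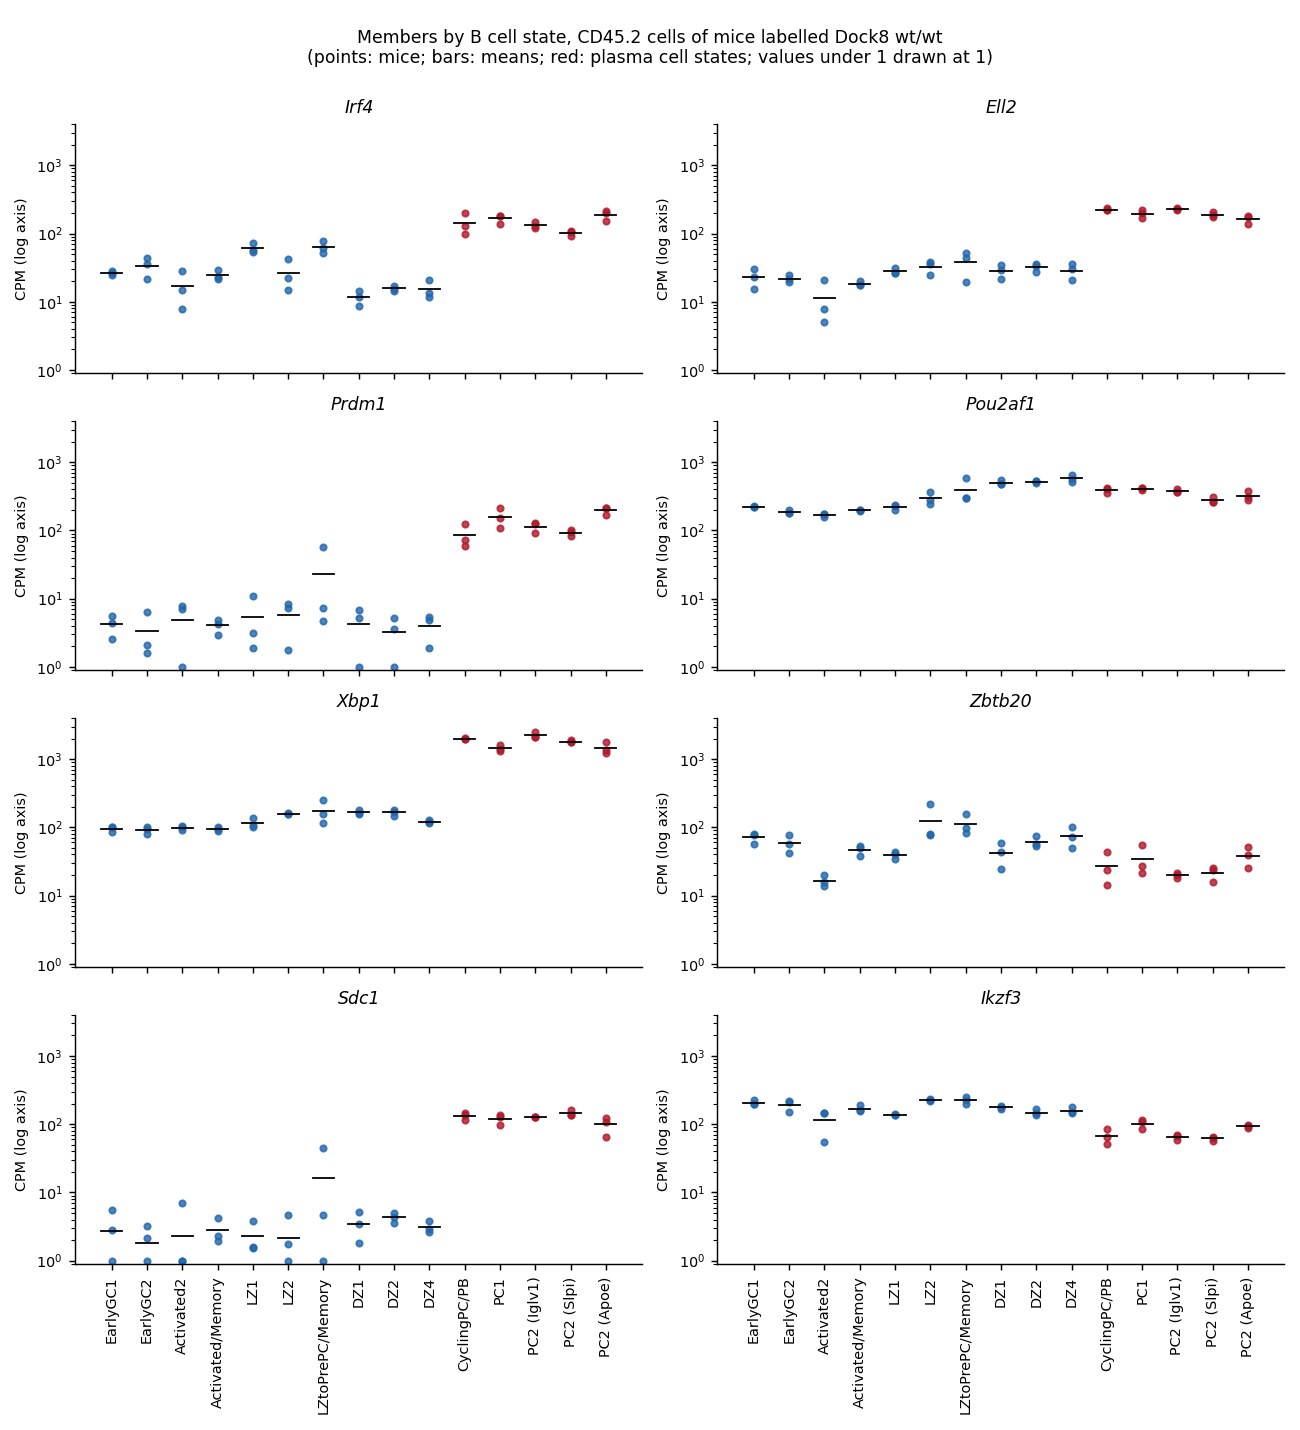
Level of each gene in the 15 B cell states of the CD45.2 sort in wt mice, as CPM on a log axis, with 1 point per mouse, bars at the mean, and plasma cell-like states in red. Irf4, Prdm1, Xbp1, Sdc1 and Ell2 stand highest in the red states, Pou2af1 is at 169 to 579 CPM across all states, and Zbtb20 and Ikzf3 lie lower in the red states than in most of the others.

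Irf4, the first of the series to rise with activation, was graded. It was at 152, 202 and 213 CPM in the 3 wt mice in PC2 (Apoe), with means of 167 CPM in PC1, 142 CPM in CyclingPC/PB, 133 CPM in PC2 (Iglv1) and 102 CPM in PC2 (Slpi). LZtoPrePC/Memory (51.7, 60.3 and 77.0 CPM) and LZ1 (52.9, 56.7 and 73.5 CPM) came next and overlapped each other. All 3 mice of both lay below the lowest plasma cell value, 90.7 CPM, and above every mouse of the states under them. The LZtoPrePC/Memory values rest on 60, 109 and 23 cells of low RNA content in wt mice 1 to 3, and so on few UMIs. The other B cell states ran from 33.4 CPM in EarlyGC2 down to 11.7 CPM in DZ1, and dark zone states took the 3 lowest places. Of the 14 pairs of neighbours in this order, 11 overlapped between mice.

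Prdm1, which encodes the repressor Blimp-1, was at 168, 212 and 213 CPM in PC2 (Apoe), followed by PC1 at 157 CPM, PC2 (Iglv1) at 113 CPM, PC2 (Slpi) at 92.5 CPM and CyclingPC/PB at 85.2 CPM. LZtoPrePC/Memory had 4.64, 7.38 and 57.7 CPM, so that 1 mouse came close to the lowest plasma cell value of 58.3 CPM and the other mice did not. The remaining 9 states lay between 3.21 and 5.78 CPM on average, and 13 of 14 neighbours overlapped. T cells in the same library, at 0, 9.36 and 94.4 CPM from 1 to 5 UMIs where any were seen, set how little such small counts can tell.

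Xbp1, the factor of the secretory apparatus, was at 2096, 2134 and 2511 CPM in PC2 (Iglv1), 1979 to 2006 CPM in CyclingPC/PB, 1758 to 1878 CPM in PC2 (Slpi), 1455 CPM in PC2 (Apoe) and 1446 CPM in PC1. No mouse of PC2 (Iglv1) overlapped CyclingPC/PB, and none of CyclingPC/PB overlapped PC2 (Slpi). The gap to the other states was the widest in CPM, between 1248 CPM for the lowest plasma cell value and 255 CPM for the highest of the rest. LZtoPrePC/Memory (175 CPM), DZ1 (166 CPM), DZ2 (166 CPM) and LZ2 (158 CPM) overlapped one another, and EarlyGC2 was lowest at 91.9 CPM.

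Sdc1, the surface marker CD138, was at 137, 138 and 163 CPM in PC2 (Slpi) followed by CyclingPC/PB, PC2 (Iglv1) and PC1, with 100.2 CPM in PC2 (Apoe), with all neighbours among these 5 overlapping. LZtoPrePC/Memory had 0, 4.64 and 44.3 CPM, and the other 9 states 1.79 to 4.31 CPM on average. Ell2, the elongation factor, was at 224, 227 and 238 CPM in PC2 (Iglv1) and 138, 172 and 179 CPM in PC2 (Apoe), its lowest plasma cell state. Its other states lay between 38.2 CPM in LZtoPrePC/Memory and 11.3 CPM in Activated2. Each of these genes had 13 of 14 neighbours overlapping, and in each the plasma cell-like states were apart from the rest in every mouse.

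Pou2af1, the octamer coactivator, was highest in the dark zone. DZ4 had 515, 575 and 646 CPM, DZ2 had 498, 525 and 534 CPM, and DZ1 had 477, 478 and 550.5 CPM, and the 3 states overlapped one another. The lowest of these values was above the highest of PC1, the next state at 409 CPM. Plasma cell-like states spread from 409 CPM in PC1 to 280 CPM in PC2 (Slpi) and shared this range with LZ2 (294 CPM) and LZtoPrePC/Memory (392 CPM). EarlyGC1 (223 CPM), LZ1 (218 CPM), Activated/Memory (198 CPM), EarlyGC2 (186 CPM) and Activated2 (169 CPM) were lowest.

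Zbtb20 and Ikzf3, both zinc finger factors, were highest in LZ2. Zbtb20 was at 78.1, 79.2 and 216 CPM there, at 112 CPM in LZtoPrePC/Memory, and at 20.0 to 38.6 CPM in the plasma cell-like states. All 14 of its neighbours overlapped, 1 wt mouse was well above the others in LZ2, and its lowest state was Activated2 at 16.5 CPM. Ikzf3 was at 220, 228 and 236 CPM in LZ2, 226 CPM in LZtoPrePC/Memory and 207 CPM in EarlyGC1. Its 5 lowest places were the plasma cell-like states, from 62.0 CPM in PC2 (Slpi) to 102 CPM in PC1, and 13 of its 14 neighbours overlapped.

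The genes with the most similar pattern over the 15 states were read as a description, by Pearson's r of log2(CPM + 10) among 4615 genes, with all states of 1 library and differing in depth and in immunoglobulin content. Xbp1 and Ell2 were each other's closest (r = 0.99), followed by Tent5c for Xbp1 (0.989) and Txndc11 for Ell2 (0.988). Sdc1 was closest to Trf (0.987) and Xbp1 (0.986), and Prdm1 to Slc44a1 (0.991), Rhobtb1 (0.987) and Sdc1 (0.973). Irf4 stood a little apart, with Tm9sf3 (0.948), Mtdh (0.944) and Cacna1e (0.940) closest and r = 0.870 with Xbp1. Pou2af1 was closest to Azin1 (0.933) and had r between -0.11 and 0.36 with the other 7 genes. Ikzf3 was closest to Rcsd1 (0.979), with r = 0.843 between Zbtb20 and Ikzf3 and -0.864 between Xbp1 and Ikzf3.

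Within single cells, the 5 plasma cell genes were compared at an equal depth of 2000 UMIs per cell, which left out 5 of 1450 plasma cells and 117 of 4780 non-plasma B cells of the CD45.2 sort in wt mice. Median depths before thinning were 8178 UMIs in plasma cells, 6182.5 in non-plasma B cells and 3308 in T cells. Xbp1 had a UMI in 94.0% of plasma cells, 20.1% of non-plasma B cells and 25.5% of T cells (99.4%, 51.1% and 30.4% unthinned). Prdm1 had one in 20.7% of plasma cells, 0.729% of non-plasma B cells and 2.13% of T cells, the last from 1 of 47 cells (53.5%, 2.95% and 7.14% unthinned). Irf4 had one in 23.3% of plasma cells, 4.83% of non-plasma B cells and 4.26% of T cells (56.9%, 14.9% and 5.36% unthinned). The thinned shares in non-plasma B cells all lay within the exact binomial intervals of the T cell shares (13.9% to 40.3% for Xbp1, 0.0539% to 11.3% for Prdm1 and 0.520% to 14.5% for Irf4), so that they could not be told from them at this number of cells. The T cell cluster is no clean background, since effector T cells express Prdm1, Xbp1 is widely expressed, and the summed opposing B cell factors, among them Pax5, were at 1157 to 1359 CPM in it against 2749 to 2975 CPM in non-plasma B cells. In CD45.1 cells of wt mice, where these factors were at 367 to 581 CPM in T cells, the shares in non-plasma B cells were the higher ones, at 18.6% against 14.8% for Xbp1, 0.398% against 0 of 27 cells for Prdm1 and 3.10% against 0 of 27 for Irf4, and 0 of 27 cells allows up to 12.8%. Sdc1 had a UMI in 21.6% and Ell2 in 32.7% of plasma cells, against 0.708% and 4.93% of non-plasma B cells and 0 and 2 of 47 T cells (59.3% and 76.4% of plasma cells unthinned). A count of 0 of 47 cells allows up to 7.55% by the exact binomial interval.

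Pou2af1 differed less, with a UMI in 49.6% of plasma cells, 42.1% of non-plasma B cells and 14.9% of T cells (89.0%, 75.0% and 28.6% unthinned). For Zbtb20 and Ikzf3 the shares were lower in plasma cells, at 5.40% against 12.3% of non-plasma B cells and 13.8% against 29.6%, and T cells had 8.51% and 19.1%. Unthinned, Zbtb20 had 17.3% and 30.2% and Ikzf3 41.5% and 64.4%. At 2000 UMIs, 3 or more of Irf4, Prdm1, Xbp1, Sdc1 and Ell2 were seen together in 365 of 1445 plasma cells (25.3%), 5 of 4663 non-plasma B cells (0.107%) and 0 of 47 T cells. The CD45.1 cells of wt mice had 24.8% of 516 plasma cells and 0.0796% of 1257 non-plasma B cells. In CD45.2 cells of cpm mice it was 7 of the 13 plasma cells and 0 of 178 non-plasma B cells. In LZtoPrePC/Memory, the state named for pre-plasma cells, it was 0 of the 84 cells that reached 2000 UMIs, and 108 of its 192 cells did not.

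**Figure D2:**
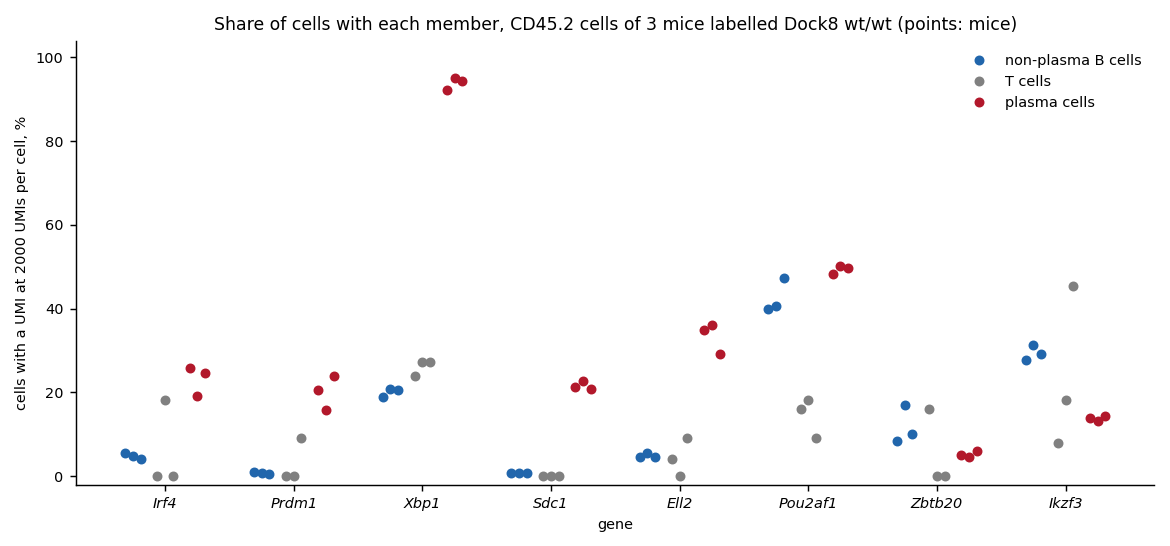
Share of CD45.2 cells of wt mice with at least 1 UMI of each gene at 2000 UMIs per cell, in percent, with 1 point per mouse for non-plasma B cells (blue), T cells (grey) and plasma cells (red). Xbp1 is seen in 94.0% of plasma cells pooled over mice, and Prdm1 and Sdc1 in under 1% of non-plasma B cells. The T cell points rest on few cells per mouse.

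Plasma cell-like cells themselves made up 18.6%, 25.1% and 26.1% of CD45.2 B cells in the wt mice and 1.75%, 11.6% and 7.37% in the cpm mice, the latter from 1 of 57, 5 of 43 and 7 of 95 cells. The groups did not overlap, and the mean was 16.3 points lower in cpm mice (23.3 ± 4.07 against 6.92 ± 4.95%, SD, n = 3, two-sided exact permutation p = 0.1). This is the smallest p that 3 mice against 3 allow. The CD45.1 partner cells, which were Dock8 wt/wt in both groups, had 20.0%, 26.8% and 32.8% in wt mice and 7.74%, 20.4% and 13.6% in cpm mice, a mean 12.6 points lower with overlap between the groups (exact permutation p = 0.2). Within a mouse, the CD45.2 share minus the CD45.1 share was -1.41, -1.69 and -6.74 points in wt mice and -5.98, -8.79 and -6.26 points in cpm mice. These differences overlapped (mean of cpm mice 3.73 points lower, exact permutation p = 0.3). The mean share was thus lower in both sorts of the cpm mice, with overlap between the groups in the CD45.1 sort. Groups of 3 mice could not decide whether the difference was larger in the CD45.2 sort.

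**Figure D3:**
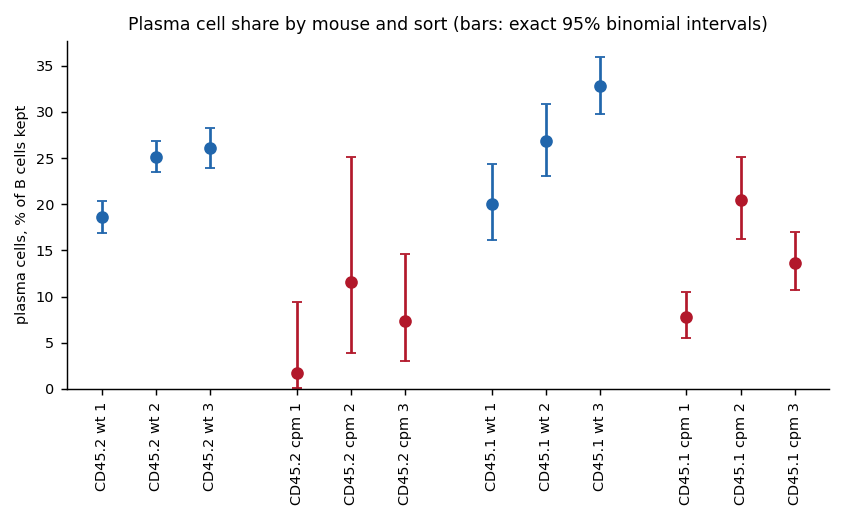
Plasma cell-like cells as a percent of all B cells kept, by sort and mouse, with exact 95% binomial intervals that cover counting error only. The CD45.2 points of cpm mice lie at 1.75 to 11.6%, below all wt mice, and the CD45.1 points of cpm mice at 7.74 to 20.4% overlap those of wt mice.

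The first question was how the 8 genes differed by the label of the CD45.2 cells when all B cells of a mouse were summed. Xbp1, Prdm1 and Ell2 were lower in cpm mice and passed the test, 3 of 8 genes where 1.09% of the 10665 genes tested were called in either direction (edgeR quasi-likelihood test, Benjamini-Hochberg adjusted p under 0.05). Irf4 and Sdc1 were lower in every cpm mouse without passing it, and Pou2af1, Zbtb20 and Ikzf3 were not called. These sums hold fewer plasma cells in cpm mice, by the shares above, and a smaller number of plasma cells and less RNA of a gene per cell cannot be told apart in them. The fitted log2 fold changes were scaled by TMM (trimmed mean of M values), which put the median gene at -0.02, and with library totals alone, a fit added after the data were seen, it was at 0.20. Of the genes called, 10 were higher and 106 lower in cpm mice with TMM, and 212 were higher and 63 lower with library totals. By library totals Xbp1 (-1.25, edgeR adjusted p = 6.14e-04) and Ell2 (-0.998, 0.0288) were called, Prdm1 was not (-1.24, 0.0682), and Ikzf3 was called as higher (0.49, 0.0412).

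Irf4 was at 49.3, 58.4 and 51.6 CPM in the wt mice and 48.6, 38.4 and 22.2 CPM in the cpm mice (log2 fold change -0.89, SE 0.22, adjusted p = 0.064 by edgeR). The groups lay side by side without overlap, with cpm mouse 1 just below the lowest wt mouse. Prdm1 was at 30.6, 43.1 and 27.9 CPM against 13.5, 11.8 and 16.2 CPM (log2 fold change -1.46, SE 0.34, adjusted p = 0.0455), clear of overlap. Xbp1 was at 479, 636 and 734 CPM against 203, 316 and 260.0 CPM (log2 fold change -1.48, SE 0.17, adjusted p = 2.19e-04), and its highest cpm mouse had less than any wt mouse. Sdc1 was at 27.3, 40.5 and 43.2 CPM against 2.70, 23.7 and 16.2 CPM, with cpm mouse 1 far below the others (log2 fold change -1.59, SE 0.41, adjusted p = 0.078). Ell2 was at 64.0, 79.6 and 83.5 CPM against 48.6, 47.3 and 26.6 CPM (log2 fold change -1.23, SE 0.23, adjusted p = 0.00886), again without overlap.

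The other genes went the opposite way in value, and the groups of each did not overlap. The share of all genes whose groups did not overlap was not tested in any comparison, so that non-overlap is a description only. Pou2af1 was at 330, 334 and 377 CPM in wt mice and 478, 473 and 408 CPM in cpm mice (log2 fold change 0.14, SE 0.11, adjusted p = 0.73). Zbtb20 was at 42.6, 74.2 and 46.0 CPM against 135, 97.6 and 78.3 CPM (log2 fold change 0.64, SE 0.25, adjusted p = 0.31). Ikzf3 was at 149, 157 and 135 CPM against 181, 225 and 211 CPM (log2 fold change 0.26, SE 0.12, adjusted p = 0.43). These values are smaller than the CPM alone would give, and by library totals they were 0.37 for Pou2af1, 0.87 for Zbtb20 and 0.49 for Ikzf3. Without any 1 cpm mouse the call of Prdm1 was lost (adjusted p = 0.178, 0.202 and 0.251 without cpm mouse 1, 2 and 3), and that of Ell2 was lost without cpm mouse 3 (0.235), while Xbp1 was called in every such fit. Without wt mouse 1, Irf4 (adjusted p = 0.0123) and Sdc1 (2.37e-04) were called as well, and without wt mouse 2 Zbtb20 was (0.0238).

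With CD45.2 cells of cpm mice limited to those with a Y-linked UMI and those of wt mice to those without, a choice made after the data were seen, 33, 25 and 59 cells of cpm mice were left. Xbp1 was still called (log2 fold change -1.13, adjusted p = 0.0112 by edgeR), and Prdm1 (-0.84, adjusted p = 0.42) and Ell2 (-0.91, adjusted p = 0.16) were not. The plasma cell shares were then 3.03%, 16.0% and 10.2% in cpm mice. A Y-linked UMI, a sparse one, was required in cpm mice alone. That kept 11 of their 13 plasma cells but 106 of their 182 non-plasma B cells, so that the choice itself raised the share. Its part in the lost calls and the part of removed admixed cells cannot be told apart. When hashtags were assigned by a 3-fold margin instead, 4 of 8 genes passed (Prdm1, Xbp1, Sdc1 and Ell2, with 0.809% of all genes called).

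**Figure D4:**
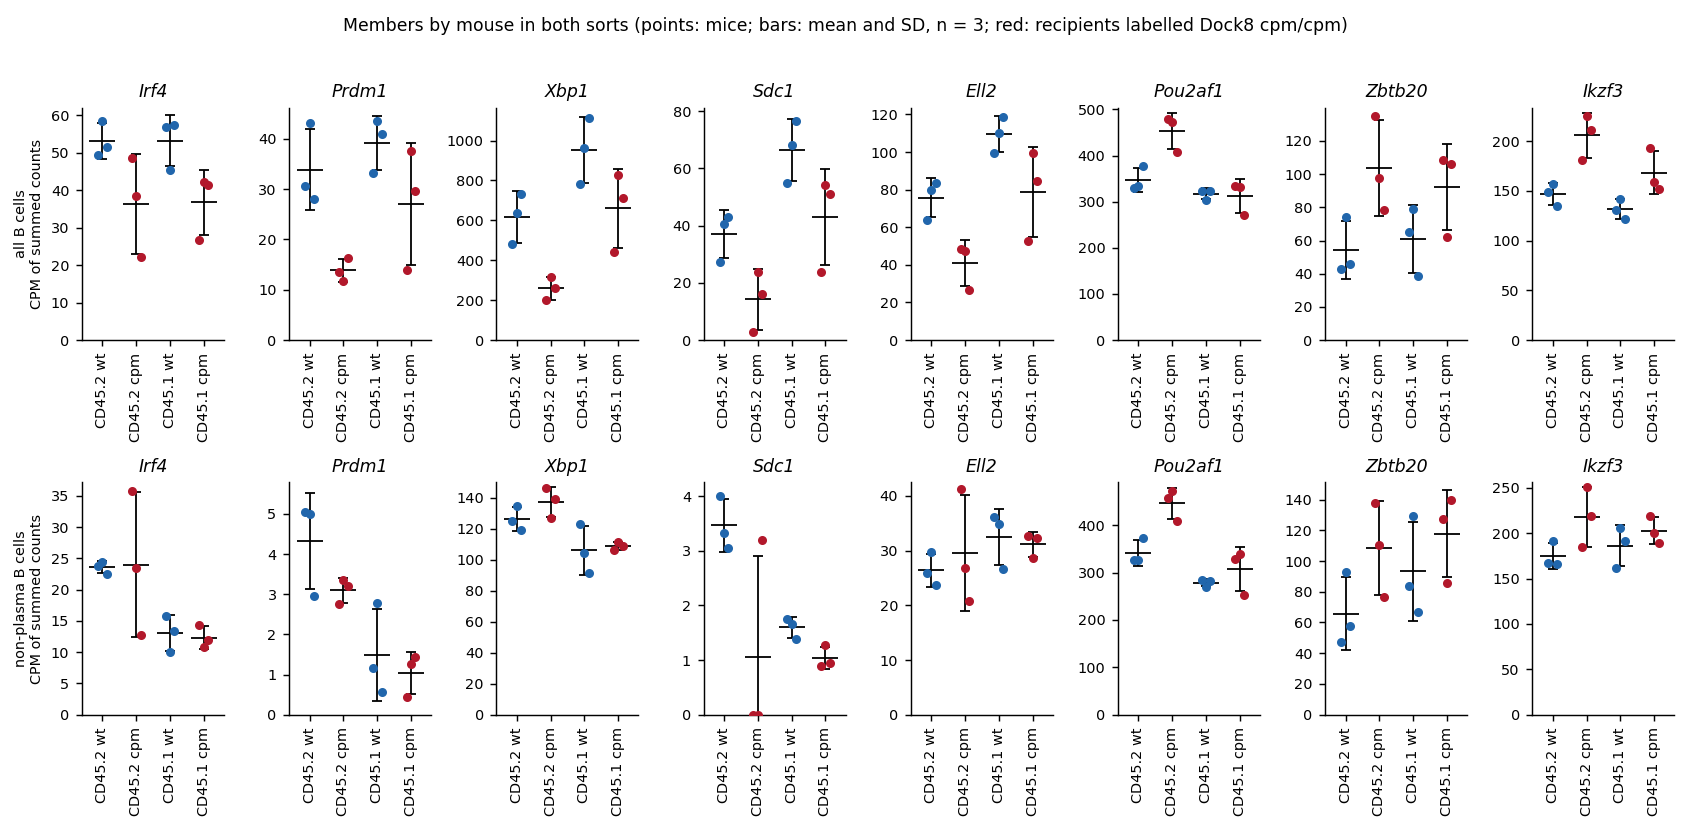
CPM of each gene in all B cells (top) and in non-plasma B cells (bottom) of each mouse in both sorts, with 1 point per mouse, bars at the mean and whiskers of 1 SD (n = 3), and recipients labelled Dock8 cpm/cpm in red. In all B cells of the CD45.2 sort Prdm1, Xbp1, Sdc1 and Ell2 of cpm mice lie below all wt mice, and in non-plasma B cells Xbp1 lies at 119 to 146 CPM in both groups.

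In non-plasma B cells alone, 0 of 8 genes were called between the labels (0.146% of genes called). An unadjusted p under 0.05 in the edgeR test was found for 2 of the 8 and for 798 of all 10239 genes tested. Xbp1 was at 125, 134 and 119 CPM in wt mice and 146, 127 and 139 CPM in cpm mice, with overlap (log2 fold change 0.02, 95% interval -0.24 to 0.27). Irf4 was at 23.8, 24.5 and 22.6 CPM against 35.8, 23.4 and 12.8 CPM, with the cpm mice on both sides of the wt mice (log2 fold change -0.23, 95% interval -0.82 to 0.36). Its mean CPM was not lower in cpm mice (24.0 against 23.6), and by library totals the fitted value was -0.11. Prdm1 was at 5.05, 4.99 and 2.96 CPM against 2.76, 3.35 and 3.19 CPM, and Sdc1 at 4.01, 3.32 and 3.06 CPM against 0, 0 and 3.19 CPM, values that rest on few UMIs. Ell2 was at 25.8, 29.7 and 23.8 CPM against 41.3, 26.8 and 20.8 CPM (log2 fold change -0.03, 95% interval -0.56 to 0.50), and by mean CPM (29.6 against 26.4) or library totals (0.08) the sign was the opposite. No direction is read from Irf4 or Ell2 in these cells. The 95% intervals of the log2 fold changes were -2.10 to 0.88 for Prdm1 and -3.19 to 0.65 for Sdc1, so that neither a fall nor a small rise in these cells was detectable at this depth.

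Pou2af1 was at 326, 326 and 374 CPM in wt mice and 457, 472 and 409 CPM in cpm mice, the one gene of the 8 without overlap in these cells (log2 fold change 0.25, SE 0.10, adjusted p = 0.49 by edgeR). Zbtb20 was at 47.1, 92.6 and 57.5 CPM against 138, 110 and 76.7 CPM (log2 fold change 0.54, SE 0.26, adjusted p = 0.64), and Ikzf3 at 167, 191 and 166 CPM against 185, 251 and 219 CPM (log2 fold change 0.20, SE 0.12, adjusted p = 0.72). Both overlapped between the groups. EarlyGC1 was the one non-plasma state with at least 10 cells in every cpm mouse, and there 0 of 6 genes were called (0.134% of genes called).

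Plasma cells of the cpm mice were too few in the CD45.2 sort for a test, with 1, 5 and 7 cells. Xbp1 was at 3033, 1756 and 1749 CPM in them, from 22, 69 and 89 UMIs, against 1848, 1833 and 2158 CPM in wt mice. Irf4 had 5, 6 and 7 UMIs, Prdm1 4, 3 and 9, Sdc1 1, 8 and 9 and Ell2 3, 8 and 5, so that each of these 5 genes was seen in the plasma cells of every cpm mouse. Pou2af1 had 11, 19 and 20 UMIs, Zbtb20 0, 0 and 5 and Ikzf3 0, 1 and 6. Under the 3-fold hashtag rule, plasma cells of 2 cpm mice could be tested, and 0 of 8 genes were called (0.0314% of genes called), with log2 fold changes of -0.09 for Xbp1 (95% interval -0.36 to 0.18) and 0.15 for Irf4 (95% interval -0.30 to 0.59). Of the 87 plasma cells of cpm mice under this rule, 60.9% had a Y-linked UMI, against 84.6% of the 13 above. The part of admixed cells in these values was not tested.

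The partner cells gave the background of the same contrast in CD45.1 cells, all Dock8 wt/wt. In all B cells, 0 of 8 genes passed the test (0.011% of genes called). In the edgeR test 6 of the 8 had an unadjusted p under 0.05, as had 1153 of all 9126 genes tested. Xbp1 was at 782, 963 and 1113 CPM in wt mice and 442, 827 and 711 CPM in cpm mice, with overlap (log2 fold change -0.67, SE 0.22, adjusted p = 0.27 by edgeR). Irf4 was at 56.9, 45.4 and 57.5 CPM against 26.7, 42.3 and 41.3 CPM, without overlap (log2 fold change -0.69, SE 0.18, adjusted p = 0.23). The other log2 fold changes were -0.71 for Prdm1, -0.80 for Sdc1, -0.62 for Ell2, -0.17 for Pou2af1, 0.50 for Zbtb20 and 0.21 for Ikzf3. Sdc1 (23.7 to 54.2 CPM in cpm mice against 54.8 to 76.6 CPM), Ell2 (52.7 to 99.5 against 99.7 to 119 CPM) and Ikzf3 (152 to 193 against 122 to 142 CPM) did not overlap either, and the median gene was at 0.15 by library totals. The mice are the same as in the CD45.2 comparison, and the values of both stand side by side in the plot of CPM by mouse.

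In non-plasma partner B cells 6 genes could be tested and 0 were called (0% of 8672 genes), with log2 fold changes from -0.11 to 0.36. Of the 6, 0 had an unadjusted p under 0.05 in the edgeR test, against 606 of all 8672 genes. In plasma cells 7 could be tested and 0 were called (0.0208% of genes called), with log2 fold changes from -0.23 to 0.18. Again 0 had an unadjusted p under 0.05 in the edgeR test, against 284 of all 4807 genes. In a fit with the mouse as a block that asked whether the difference by label in non-plasma B cells was larger in the CD45.2 than in the CD45.1 sort, 0 of 6 genes were called (0.0219% of genes called) and the differences ranged from -0.06 to 0.21.

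Genes that work with the 8 were read from lists of the pathway. Of 19 secretory genes, 17 were lower in all CD45.2 B cells of cpm mice, with a median log2 fold change of -1.32 against -0.02 over all genes, and none was higher. Among them were Fkbp11, a folding enzyme of the secretory pathway (-2.09), Derl3, which takes part in degradation of misfolded proteins (-1.89), Creld2 (-1.63) and Edem1 (-1.59). Of 13 other plasma cell regulators and receptors, 3 were lower, namely Tent5c, a poly(A) polymerase that stabilizes immunoglobulin mRNA (-1.40), Arid3a (-0.66) and Slamf7 (-0.65). Of 11 tested opposing factors, which include Pax5, Bcl6 and Bach2 and maintain B cell identity, and of 19 tested partners of the 8 genes, 0 were called in either list. In the edgeR test 4 and 2 of them had an unadjusted p under 0.05, as had 1177 of all 10665 genes tested. Of 13 cycling genes and of 5 tested T cell markers 0 were called, with 0 at an unadjusted p under 0.05 in either list. Of 3 tested myeloid and erythroid markers 1 was lower, Cst3 (-0.55, edgeR adjusted p = 0.0497). In non-plasma B cells 0 of 19 secretory genes were called. An unadjusted p under 0.05 in the edgeR test was found for 3 of them and for 798 of all 10239 genes.

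The second question was how the 8 genes differed between the sorts within the wt mice, CD45.2 cells with BCL2.Tg against CD45.1 partners without it. In non-plasma B cells, 1 of 8 genes was called, Irf4, and 3.34% of 10470 genes were called. Irf4 was at 23.8, 24.5 and 22.6 CPM in CD45.2 cells and 15.7, 9.97 and 13.3 CPM in their CD45.1 counterparts, higher in all 3 and without overlap (log2 fold change 0.84, SE 0.15, adjusted p = 0.0109 by edgeR). The call was lost without wt mouse 1 (adjusted p = 0.0864) or wt mouse 2 (0.162). Irf4 had enough counts to be fitted alone in 4 non-plasma states (LZ2, Activated/Memory, EarlyGC1 and DZ2) and was called in none of them.

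Prdm1 was at 5.05, 4.99 and 2.96 CPM against 1.16, 2.77 and 0.555 CPM, without overlap but at a few CPM (log2 fold change 1.75, SE 0.49, adjusted p = 0.068), and Sdc1 at 4.01, 3.32 and 3.06 CPM against 1.75, 1.66 and 1.39 CPM (1.14, SE 0.38, adjusted p = 0.116). Prdm1 had 156 UMIs in CD45.2 cells and 9 in CD45.1 cells, and Sdc1 had 123 and 11. With so few UMIs in CD45.1 cells, both genes entered the fit through the CD45.2 cells, and no difference is read from them. Jchain, an abundant plasma cell transcript, was higher in the CD45.2 sort too. It was at 885 to 1535 CPM in T cells of the CD45.2 library and 102 to 161 CPM in T cells of the CD45.1 library, and at 749 to 924 against 331 to 492 CPM in non-plasma B cells. The summed T cell markers, among them Lck, also a leading gene of LZ2, were at 28.3 to 42.5 against 40.2 to 69.8 CPM in these cells. Lyz2, a myeloid gene, was lower in the CD45.2 sort (log2 fold change -4.94, edgeR adjusted p = 1.77e-04). The part of these transcripts in the values of Prdm1, Sdc1 and Irf4 was not tested. Pou2af1 was at 326, 326 and 374 CPM against 285, 270 and 282 CPM, without overlap (log2 fold change 0.29, SE 0.09, adjusted p = 0.092). Zbtb20 was at 47.1, 92.6 and 57.5 CPM against 83.8, 129 and 67.1 CPM, lower in CD45.2 cells of every mouse while the groups overlapped (log2 fold change -0.48, SE 0.23, adjusted p = 0.26). With the mouse as a block it was called too (-0.50, adjusted p = 0.0351), making 2 of 8 genes. The non-plasma states were filled unequally by the sorts of wt mice 1 to 3. LZ2, highest in Zbtb20, held 61 of 1625, 363 of 1929 and 90 of 1226 CD45.2 cells. It held 97 of 308, 201 of 374 and 156 of 629 CD45.1 cells. LZ1 held 95, 106 and 70 against 13, 5 and 20 cells, and LZtoPrePC/Memory 60, 109 and 23 against 1, 1 and 5. Both were high in Irf4. The part of this filling in the differences of Irf4 and Zbtb20 was not tested.

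Within single states, calls fell on other genes of the set. In DZ2, 3 of 6 genes were called (3.25% of genes called): Xbp1 was higher in CD45.2 cells (log2 fold change 0.78, SE 0.16, edgeR adjusted p = 0.00118), Pou2af1 was higher (0.38, SE 0.10, adjusted p = 0.0148) and Zbtb20 was lower (-0.69, SE 0.19, adjusted p = 0.0244). In Activated/Memory, 1 of 6 was called (1.78% of genes called), Pou2af1, higher in CD45.2 cells by 0.52 on the log2 scale (SE 0.13, edgeR adjusted p = 0.0324), and the block added Xbp1 (0.66, adjusted p = 0.0140). In DZ1 the block alone called Pou2af1 (0.32, adjusted p = 0.0292). None of the 4 to 6 genes of the set that could be tested was called in EarlyGC1, EarlyGC2, LZ2 or DZ4, with or without the block. These fits were added after the data were seen.

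In plasma cells, 3 of 8 genes differed between the sorts, but 16.9% of the 8751 genes tested were called, so that 3 of 8 is to be read against a large background. The called genes were 843 higher and 636 lower in CD45.2 cells with TMM, and 1185 higher and 311 lower with library totals, by which the median gene moved from 0.03 to 0.17, Xbp1 was not called (-0.21, edgeR adjusted p = 0.136) and Ikzf3 was (0.50, 0.0286). Xbp1 was at 1848, 1833 and 2158 CPM in CD45.2 cells and 2427, 2135 and 2207 CPM in CD45.1 cells, lower in each mouse with overlap between mice (log2 fold change -0.34, SE 0.10, adjusted p = 0.0390 by edgeR). Sdc1 was at 117, 129 and 136 CPM against 187, 159 and 157 CPM, without overlap (log2 fold change -0.51, SE 0.12, adjusted p = 0.0122). Zbtb20 was at 25.4, 30.4 and 19.4 CPM against 18.9, 10.6 and 8.62 CPM, higher in each mouse and without overlap (log2 fold change 1.07, SE 0.27, adjusted p = 0.0178). All 3 calls were lost without wt mouse 1 (adjusted p = 0.197, 0.126 and 0.0515 for Xbp1, Sdc1 and Zbtb20) and without wt mouse 2 (0.300, 0.147 and 0.181), and Xbp1 was not called once the cells with the highest doublet scores were removed (0.118).

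Irf4 (log2 fold change 0.09, 95% interval -0.26 to 0.44) and Prdm1 (0.13, 95% interval -0.24 to 0.50), the factors that set up the plasma cell program, were not called between sorts in plasma cells. Ell2 (-0.24, SE 0.11, adjusted p = 0.16), Pou2af1 (-0.20, SE 0.11, adjusted p = 0.23) and Ikzf3 (0.36, SE 0.14, adjusted p = 0.093) were not called either, although Ikzf3, at 77.5, 75.8 and 62.7 CPM against 52.3, 54.4 and 47.5 CPM, did not overlap. The plasma clusters were filled unequally by the sorts. PC2 (Iglv1) held 42.2 to 50% of the plasma cells of the CD45.2 sort and 57.1 to 61.6% of those of the CD45.1 sort, PC1 held 11.1 to 17.3% against 0.977 to 7.79%, and PC2 (Apoe) 2.55 to 17.2% against 0.326 to 3.65%. Within PC2 (Iglv1) alone, Sdc1 (-0.46, SE 0.12, adjusted p = 0.0173) and Zbtb20 (1.13, SE 0.28, adjusted p = 0.0161) were called, 2 of 8 genes against 12.2% of all genes, and Xbp1 was not. Within PC2 (Slpi), Pou2af1 was lower in CD45.2 cells (-0.48, SE 0.15, adjusted p = 0.0439), 1 of 8 genes against 11.4% of all genes, and the call was lost with the mouse as a block.

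The other lists moved in the same plasma cells. Of 11 tested opposing factors 10 were higher in the CD45.2 sort, led by Pax5 (4.65), Bcl6 (4.45), Ciita (4.17) and Spib (4.08), which B cells use and plasma cells silence, with a median log2 fold change of 3.53 against 0.03 over all genes. Their summed level was 409 to 671 CPM in plasma cells of the CD45.2 sort and 98.6 to 169 CPM in those of the CD45.1 sort, against 2749 to 2975 and 2845 to 2921 CPM in non-plasma B cells, with 0 of the 12 listed genes at 0 in the plasma cells of either sort. Their part in the higher Zbtb20 of CD45.2 plasma cells, a gene that is itself higher in non-plasma B cells, was not tested. Of 19 secretory genes 10 were lower and none was higher, among them Spcs1 (-0.77), Hsp90b1 (-0.73), Fkbp11 (-0.72) and Pdia6 (-0.70). Lck, the 1 T cell marker tested here, was higher (3.17), as was the globin gene Hbb-bt (7.05). Hbb-bt was at 3.42 to 6.99 CPM in plasma cells of the CD45.2 sort and 0 in those of the CD45.1 sort. In non-plasma B cells it went the other way, at 26.1 to 37.0 against 53.2 to 60.5 CPM. Lck was also among the leading genes of the B cell state LZ2, so that it does not mark T cells alone in these data. The summed T cell markers, Lck among them, were at 10.5 to 21.7 against 2.08 to 5.29 CPM.

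**Figure D5:**
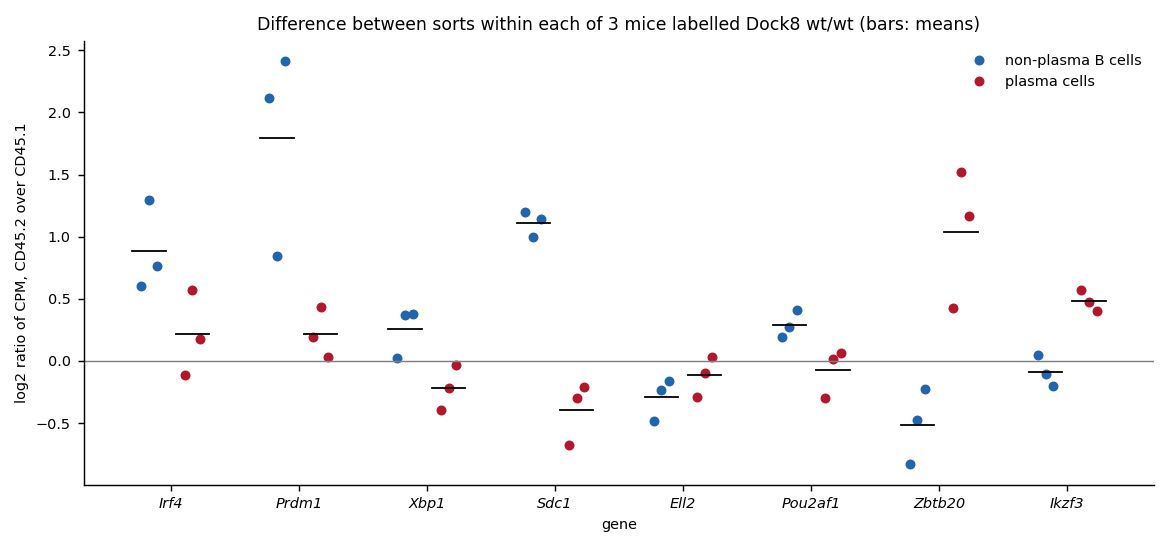
log2 ratio of CPM in CD45.2 over CD45.1 cells within each of the 3 wt mice, for non-plasma B cells (blue) and plasma cells (red), with bars at the mean. For Xbp1 and Sdc1 all blue points are above 0 and all red points below it, and for Zbtb20 the reverse holds. The Xbp1 points nearest to 0 are at 0.02 (blue) and -0.03 (red).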

How the data were processed

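Splenic B cells were profiled with 10x 3′ chemistry as 2 mRNA libraries (CD45.2 and CD45.1 sorts) and 2 hashtag libraries, 3 recipients per group. The deposited values are raw counts of UMIs per gene and of hashtags per barcode, which the authors made with Cell Ranger 5.0.1 against mm10. From there, hashtags were assigned with Seurat 5.3.0 HTODemux (quantile 0.99), and single cells with 100 to 5500 genes and under 10% mitochondrial counts were kept. The study counted more CD45.2 cells than this filter left here. Doublets were removed by the hashtags alone for the reported values. Cells were normalized with sctransform 0.4.2 (3000 variable genes without the 8 genes) and clustered at resolution 0.9 on 30 components, and a cluster took the marker list with the most genes among its 50 leading genes, 3 or more being required.

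Counts were summed per mouse, sort and class with at least 10 cells and tested with edgeR 4.0.16 (filterByExpr, TMM, quasi-likelihood, Benjamini-Hochberg adjustment at 0.05), all genes being fitted and adjusted together. On simulated data with 2-fold changes in 100 genes the non-plasma genotype fit recovered 72% (10263 genes), and the plasma sort fit 75% (8876 genes). The common dispersions were 0.0058 and 0.0179, in that order. Recovery of changes in the 8 genes themselves was not tested. In non-plasma CD45.2 cells of cpm mice, Prdm1 had 4 UMIs and Sdc1 had 2. Depth per mouse and class sets the precision, and intervals of shares cover counting error only. Alternatives were DESeq2 1.42.0, no filter on low counts, immunoglobulin genes left out, stricter cell filters, the 6% of cells with the highest Scrublet scores removed (its own threshold called 4 and 13 cells), other resolutions, the 8 genes kept for clustering, a 3-fold hashtag rule, each mouse left out and, added later, library totals without TMM. The sorts of a mouse are paired by its hashtag. The correlation of their deviations was 0.02, 0.17 and 0.08 in non-plasma and 0.05, 0.14 and 0.35 in plasma cells of wt mice 1 to 3, and the mouse was a block in an alternative. The genes named are the 8, the 3 most similar to each, and up to 4 called genes per list and direction, and 1 gene that this rule names is not reported here. The 8 genes and all lists were chosen with earlier results of these data known.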

Additional observations from a re-analysis of the deposited data

Results flagged for a closer look

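Some signal lay outside the comparisons. In the CD45.2 library, 7951 barcodes assigned to 2 or more hashtags held 109917 UMIs of the 8 genes, and 9028 barcodes with no hashtag counts held 66852. In the CD45.1 library, 1548 barcodes of the first kind held 32688 UMIs and 330 of the second kind held 2581. These barcodes belong to no mouse and entered no test. Xbp1 was at 459 CPM in the first kind and 408 CPM in the second kind in the CD45.2 library, against 602 CPM in cells of 1 hashtag, and at 1378 and 891 CPM against 869 CPM in the CD45.1 library.

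Xbp1, Sdc1 and Zbtb20 differed in opposite directions between the sorts in plasma and in other B cells of every wt mouse. The mean log2 ratio of CPM, CD45.2 over CD45.1, was -0.22 for Xbp1 in plasma cells and 0.26 in non-plasma B cells. Some Xbp1 values were close to 0, at -0.03 in plasma cells of wt mouse 3 and 0.02 in non-plasma B cells of wt mouse 1. The Sdc1 ratio in non-plasma B cells rests on 11 UMIs in the CD45.1 sort. For Sdc1 it was -0.39 in plasma cells and 1.11 in non-plasma B cells, and for Zbtb20 it was 1.04 and -0.51. The difference between the classes was not tested. Groups of 3 mice were too small for a search for single outlying mice.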

How the results depend on the processing

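The number of the 8 genes called in all CD45.2 B cells by label was 3, and it was 5 with DESeq2, 6 without a filter on low counts, 1 with cells limited by sex-linked UMIs, and 1 to 5 with a mouse left out. The call of Xbp1 was kept in all of these fits. In partner cells 6 genes were called without the filter, against 0. Between sorts, non-plasma B cells had 4 calls without the filter, 2 with high doublet scores removed, 2 with the mouse as a block (also with immunoglobulin genes left out) and 0 to 1 with a mouse left out, against 1. The block gave 2 calls in Activated/Memory against 1, 1 in DZ1 against 0 and 0 in PC2 (Slpi) against 1, and left the same 3 calls in plasma cells, to which it added Ikzf3 once immunoglobulin genes were left out (edgeR adjusted p = 0.0492). Plasma cells had 5 calls under the 3-fold rule, where 24.4% of all genes were called, against 3 and 16.9%. With a mouse left out they had 0 to 4. The 3-fold rule let 2 cpm mice into the plasma cell comparison by label, against 0. The other counts in this paragraph stand without the share of all genes called. They are read only as how far the calls moved with the processing.

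The plasma cell share differed by -18.7 to -13.8 points with a mouse left out, and the share in CD45.1 cells by -15.9 to -9.48 points. Under the 3-fold rule the differences were -14.4 points in CD45.2 cells and -8.45 points in CD45.1 cells (exact permutation p = 0.3 for the latter). CD45.1 cells of cpm mice then had 12.3%, 26.1% and 24.7%. With cells limited by sex-linked UMIs the CD45.2 difference was -13.6 points. Without immunoglobulin genes, the log2 ratios of plasma to non-plasma cells were 3.12 for Irf4, 5.37 for Prdm1, 4.55 for Xbp1, 5.82 for Sdc1, 3.61 for Ell2, 0.68 for Pou2af1, -0.75 for Zbtb20 and -0.68 for Ikzf3. Prdm1 had 4.52 under the 3-fold rule, and with high doublet scores removed Prdm1 had 4.96, Sdc1 5.53 and Pou2af1 0.12.

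No called value changed sign. By label in all B cells, the log2 fold change of Pou2af1 became -0.0084 under the 3-fold rule and -0.0275 with cells limited by sex-linked UMIs. In non-plasma B cells, Irf4 became 0.0288, Xbp1 -0.13 and Ell2 0.14 under the 3-fold rule, Ell2 0.0024 with DESeq2 and 0.0847 with library totals without TMM, Xbp1 -0.0262 without the filter, and Prdm1 0.23 and Ell2 0.25 with cells limited by sex-linked UMIs. With a mouse left out, Irf4 ranged from -0.66 to 0.21, Xbp1 from -0.033 to 0.0556 and Ell2 from -0.34 to 0.25. Between sorts in plasma cells, Irf4 became -0.0339 and Prdm1 -0.0412 under the 3-fold rule, and Irf4 ranged from -0.0523 to 0.20 with a mouse left out. The cause of these changes was not tested. The few CD45.2 cells of cpm mice limit every comparison by label.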
